A study of Arabidopsis thaliana with 8 samples.

Results

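The Casparian strip genes were followed here across roots of Arabidopsis thaliana, as 8 loci out of the 40246 features of the deposited count table. They were listed by locus identifier, with earlier results of these data known: CASP1 (AT2G36100), CASP2 (AT3G11550), CASP4 (AT5G06200), CASP5 (AT5G15290), MYB36 (AT5G57620), ESB1 (AT2G28670), PER64 (AT5G42180) and SGN3 (AT4G20140). Each locus had 1 row, and all 8 passed the filter on low counts that left 20262 features for testing. The roots came from 7-day-old seedlings in the Col-0 background, either bzr1-D or wild type, which were moved on day 6 and spent 24 h on low Pi (1 µM) or adequate Pi (0.625 mM). All were grown on MS-based medium with 0.2% sucrose, in long days, and no other treatment separates the groups. Low Pi in bzr1-D, adequate Pi in bzr1-D, low Pi in wild type and adequate Pi in wild type each had 2 libraries, 1 numbered Exp 1 and 1 numbered Exp 2, which the labels call biological replicates. The bzr1-D line carries a dominant allele of BZR1, a transcription factor of the brassinosteroid pathway, whose product is stabilised in every cell that makes it. That allele is a coding change, so counts of the gene do not check the genotype labels. The sources used here give neither the number of plants nor the stretch of root behind a library.

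The Casparian strip is a ring of lignin in the walls between endodermal cells that forces solutes to pass through the cells on their way to the vascular tissue. The CASP proteins are membrane proteins that gather into a band and mark where the strip forms. MYB36 is the transcription factor that switches on the CASP genes and other genes of the strip as the endodermis differentiates. PER64 is a peroxidase and ESB1 a dirigent-like protein, and both act in placing lignin at the band. SGN3, a leucine-rich repeat receptor-like kinase, senses gaps in the barrier through small sulfated peptides that leak past an unfinished strip. The comparisons below ask whether these genes differed between bzr1-D and wild type, and whether 24 h of low Pi moved them in either genotype.

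The 8 genes are spread over 4 chromosomes, at the TAIR10 coordinates of the deposited table. CASP1 lies at chr2:15159591-15160750 and ESB1 at chr2:12300259-12302358, both on the minus strand. On the plus strand are CASP2 at chr3:3638195-3639197, SGN3 at chr4:10884197-10888270, CASP4 at chr5:1877333-1878116, CASP5 at chr5:4967011-4968035, PER64 at chr5:16852630-16854224 and MYB36 at chr5:23334817-23336566. No pair of members neighbours each other.

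Library totals lay between 15947895 and 22150569 counts, so 1 CPM stood for at least 15.9 counts. CPM, the counts relative to the library total, were scaled by the TMM method of edgeR. The libraries differed by Exp number as well as by group: with a term for it, 29.5% of the features tested differed between Exp 2 and Exp 1 at an adjusted p under 0.05 (edgeR). MYB36, CASP5 and CASP1 were among them, higher in Exp 2 by 0.37 ± 0.07, 0.47 ± 0.10 and 0.26 ± 0.06 on the log2 scale (SE). Each comparison is therefore given from a fit without the Exp number and, where it changes the call, from a fit with the Exp number as a replicate block. Without it the residual degrees of freedom were 4, and with it they were 3. The 2 fits share all libraries and are 2 readings of the same data. The block takes the Exp effect to be the same in both genotypes, and where it is not, blocked p-values by genotype may be too small.

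Of the 7 members whose level could be read (ESB1 could not), MYB36 had the largest averaged difference between the genotypes. It measured 15.3 and 18.7 CPM in bzr1-D at low Pi and 15.3 and 18.1 CPM in bzr1-D at adequate Pi, against 21.7 and 30.0 CPM in wild type at low Pi and 19.9 and 27.4 CPM in wild type at adequate Pi. All 4 bzr1-D libraries lay below all 4 wild-type libraries. Of all features tested, 7.47% were ordered in this way with bzr1-D lower. Averaged over Pi supply, MYB36 was at 16.8 ± 1.78 CPM in bzr1-D and 24.7 ± 4.75 CPM in wild type (SD, n = 4 each).

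Without the Exp number in the fit the log2 difference of MYB36, bzr1-D minus wild type, was -0.55 ± 0.16 (SE; 95% interval from -0.93 to -0.18), which did not pass the threshold (edgeR, adjusted p = 0.12). With the Exp number as replicate block it was -0.54 ± 0.07 and MYB36 fell (edgeR, adjusted p = 3.7e-04). The single Pi supplies, which share their libraries with that average, gave -0.61 ± 0.22 at low Pi and -0.50 ± 0.22 at adequate Pi without the block (edgeR, adjusted p = 0.35 and 0.56). With the block they gave -0.60 ± 0.11 and -0.49 ± 0.11, and MYB36 fell at both supplies (edgeR, adjusted p = 0.0038 and 0.014). DESeq2 with the block called the average (adjusted p = 2.5e-04) and the difference at low Pi (adjusted p = 0.016), but not that at adequate Pi (adjusted p = 0.093).

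Within Exp 1 the log2 ratio of MYB36 was -0.50 at low Pi and -0.37 at adequate Pi, and within Exp 2 it was -0.68 and -0.60. All 4 ratios had bzr1-D lower. Leaving out 1 library at a time, the blocked call on the average and the one at low Pi held in all 8 fits. The call at adequate Pi was lost without either of the bzr1-D adequate-Pi libraries and without either of the wild-type adequate-Pi libraries (edgeR, highest adjusted p = 0.25). Without the block, leaving out 1 library moved the log2 difference between -0.72 and -0.25 at adequate Pi, between -0.84 and -0.35 at low Pi and between -0.68 and -0.43 averaged. In RNA from whole roots, fewer cells of a type and less RNA per cell cannot be told apart from the level of 1 gene. Of the other strip genes, CASP1 was at 0.02 ± 0.12 and CASP2 at -0.0046 ± 0.12 in the averaged log2 difference without the block (SE). PER64 was at 0.08 ± 0.10 in the same comparison, and none of these 3 passed the threshold. Over all members that could be read, MYB36 included, this difference ran from -0.55 to 0.20, with a median of 0.08. Whether cell number had a part in the MYB36 difference was not tested.

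**Figure D1:**
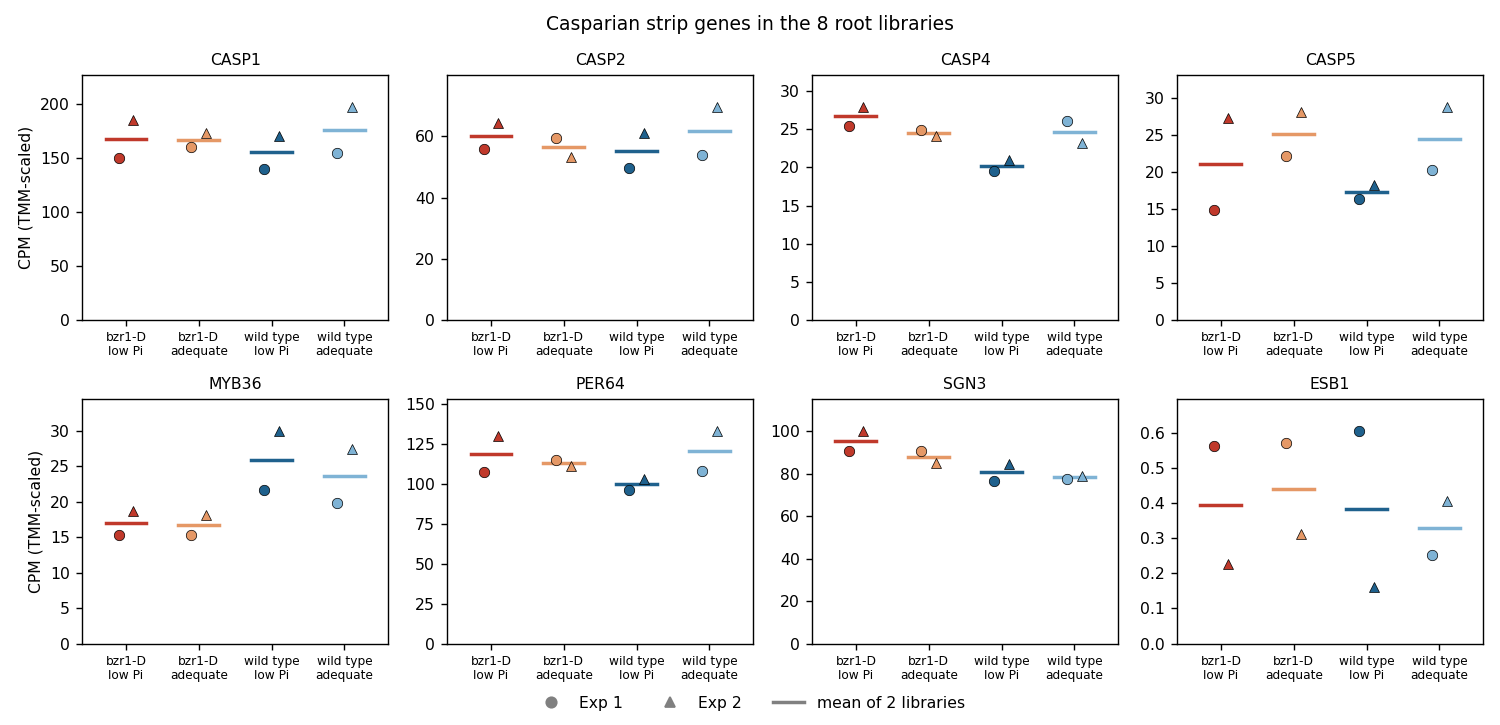
Level of each Casparian strip gene in CPM (vertical axes, from 0) in the 8 root libraries, by genotype and Pi supply; circles are Exp 1, triangles Exp 2 and bars the mean of 2 libraries. MYB36 is at 15.3 to 18.7 CPM in the bzr1-D libraries and 19.9 to 30.0 CPM in the wild-type libraries, and the CASP1 libraries overlap.

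The sequences just upstream of MYB36 and SGN3 are shown because these were the 2 members whose bzr1-D and wild-type libraries did not overlap, and that of GSO2 because it is the relative of SGN3 described further on. They are the 250 bases before the RefSeq start of each gene in TAIR10.1, at chr5:23334517-23334766 (plus strand), chr4:10883671-10883920 (plus strand) and chr5:18037324-18037573 (minus strand), written 5′ to 3′ on the strand of the gene. Capitals mark matches, on either strand, to CGTGTG or CGTGCG, which BZR1 is known to bind, and to the E-box CANNTG, of which the G-box CACGTG is one form.
MYB36: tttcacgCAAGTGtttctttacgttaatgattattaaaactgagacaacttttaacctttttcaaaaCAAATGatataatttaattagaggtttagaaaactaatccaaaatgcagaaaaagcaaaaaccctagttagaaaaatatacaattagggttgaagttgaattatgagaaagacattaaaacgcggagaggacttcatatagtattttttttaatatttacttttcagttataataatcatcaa
SGN3: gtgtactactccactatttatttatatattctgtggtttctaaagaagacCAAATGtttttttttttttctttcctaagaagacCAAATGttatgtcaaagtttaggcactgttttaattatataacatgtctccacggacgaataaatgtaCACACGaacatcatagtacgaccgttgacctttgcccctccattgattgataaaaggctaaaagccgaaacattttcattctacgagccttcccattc
GSO2: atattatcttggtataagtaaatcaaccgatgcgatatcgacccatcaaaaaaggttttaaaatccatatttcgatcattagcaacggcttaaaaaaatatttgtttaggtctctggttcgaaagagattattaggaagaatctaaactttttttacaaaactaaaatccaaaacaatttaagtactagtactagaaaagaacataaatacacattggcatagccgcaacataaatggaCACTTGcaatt

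CGTGTG stood in the SGN3 window, where it reads CACACG on the printed strand, 98 to 93 bases before the start. It was in no other member's window and in 5.37% of the 27437 promoters of this length. CGTGCG was in no member's window and in 1.57% of all. The E-box was in 4 of the 8 members' windows, those of CASP1, CASP4, MYB36 and SGN3, and in 55.3% of all. CACGTG (6.49% of all) and GNATATNC, the element bound by the Pi starvation regulator PHR1 (5.46% of all), were in none of the 8. A match describes the letters of a window and does not show that a factor binds there.

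None of CASP1, CASP2, CASP4, CASP5 and PER64, which MYB36 is known to activate, was called lower in bzr1-D. In the averaged comparison 671 of the 20262 features tested were called lower without the block and 1718 with it (edgeR). The lack of such a call therefore does not set these genes apart from other features. CASP1 measured 150.3 and 185 CPM in bzr1-D at low Pi and 160.0 and 174 CPM in bzr1-D at adequate Pi, against 140.1 and 171 CPM in wild type at low Pi and 155 and 197 CPM in wild type at adequate Pi. The genotypes overlapped, with means of 167 ± 15.3 CPM in bzr1-D and 166 ± 24.4 CPM in wild type (SD, n = 4 each). The averaged log2 difference of CASP1 was 0.02 ± 0.12 (SE), with a 95% interval from -0.28 to 0.31. CASP2 measured 55.9 and 64.5 CPM in bzr1-D at low Pi and 59.4 and 53.4 CPM in bzr1-D at adequate Pi, against 49.8 and 61.0 CPM in wild type at low Pi and 53.9 and 69.5 CPM in wild type at adequate Pi, again with overlap. It averaged 58.3 ± 4.80 CPM in bzr1-D and 58.5 ± 8.66 CPM in wild type (SD, n = 4 each), with a log2 difference of -0.0046 ± 0.12 (SE), which turned to 0.0044 with the block.

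CASP5 averaged 23.2 ± 6.10 CPM in bzr1-D and 20.9 ± 5.47 CPM in wild type (SD, n = 4 each), with overlap between the genotypes. PER64, the peroxidase, averaged 116 ± 9.86 CPM in bzr1-D and 110.0 ± 16.1 CPM in wild type (SD, n = 4 each). Its averaged log2 difference was 0.08 ± 0.10 (SE; 95% interval from -0.16 to 0.33). None of CASP1, CASP2, CASP5 and PER64 passed the threshold in either fit, at either Pi supply or averaged (edgeR). The interval of CASP5 ran from -0.33 to 0.65 in the average without the block. At adequate Pi in the same fit, the intervals of CASP5 (from -0.66 to 0.73) and CASP2 (from -0.52 to 0.26) took in the -0.50 measured for MYB36.

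MYB36 was therefore also expressed as a ratio to each of the other readable members in the same library, a comparison chosen after the values had been seen. Its log2 ratio to CASP1 was -3.31 ± 0.05 in bzr1-D and -2.75 ± 0.20 in wild type (SD, n = 4 each), a difference of -0.56. The ratios to CASP2, CASP4, PER64 and SGN3 differed by -0.54, -0.74, -0.62 and -0.74, again with bzr1-D lower. For each of these 5 ratios the 4 bzr1-D libraries lay below the 4 wild-type libraries, which gives a 2-sided exact permutation p of 0.029, the smallest that 4 libraries against 4 can give (adjusted over 6 ratios, 0.034). The ratio to CASP5 differed by -0.68, and its libraries overlapped (exact permutation p = 0.086). All 6 ratios share the MYB36 values and are not independent of each other, and the permutation takes no account of Pi supply or Exp number. MYB36 alone already had all 4 bzr1-D libraries below all 4 wild-type libraries, so the p-values of its ratios were largely set in advance. As the ratios were chosen once MYB36 had been seen to differ, they are no independent support for its difference.

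**Figure D2:**
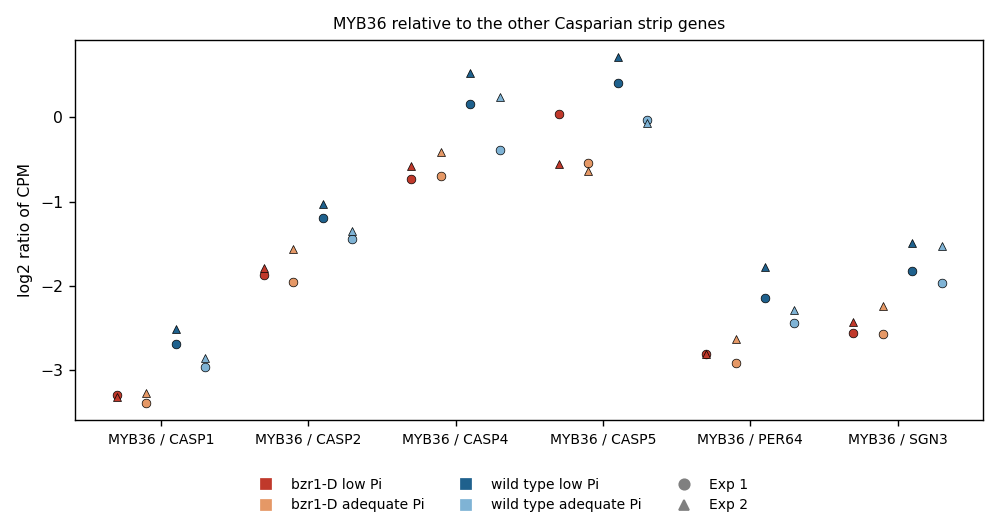
Log2 ratio of MYB36 CPM to the CPM of each of 6 other Casparian strip genes (vertical axis), 1 point per library, coloured by genotype and Pi supply, with circles for Exp 1 and triangles for Exp 2. The bzr1-D points lie below the wild-type points for every gene but CASP5, with mean log2 ratios to CASP1 of -3.31 in bzr1-D and -2.75 in wild type.

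Of the CASP genes described, CASP4 was the 1 that passed a threshold by genotype with all 8 libraries, at low Pi and with the block. It measured 25.5 and 27.9 CPM in bzr1-D at low Pi and 24.9 and 24.1 CPM in bzr1-D at adequate Pi, against 19.5 and 20.9 CPM in wild type at low Pi and 26.1 and 23.2 CPM in wild type at adequate Pi. Both wild-type low-Pi libraries were the lowest of the 8. At low Pi the log2 difference, bzr1-D minus wild type, was 0.40 ± 0.12 (SE), which did not pass without the block (edgeR, adjusted p = 0.21) and passed with it (0.40 ± 0.11; edgeR, adjusted p = 0.038). The blocked call held in 2 of the 8 fits that left out 1 library, those without bzr1-D low Pi of Exp 1 and without wild type adequate Pi of Exp 1 (highest adjusted p over the 8 = 0.24). DESeq2 did not call CASP4 with or without the block.

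Among the 8 members, none passed the threshold without the block at adequate Pi, at low Pi or averaged over Pi supply (edgeR). Of all features tested, 1.99%, 2.12% and 5.37% did so in these comparisons. At an unadjusted p under 0.05 there were 0 members at adequate Pi, 2 at low Pi (MYB36 and CASP4) and 2 averaged (MYB36 and SGN3), and DESeq2 without the block also called none. With the block 1 member passed at adequate Pi (MYB36), 2 at low Pi (MYB36 and CASP4) and 2 averaged (MYB36 and SGN3), beside 7.4%, 9% and 15.3% of all features.

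SGN3 measured 90.5 and 100.2 CPM in bzr1-D at low Pi and 90.7 and 85.1 CPM in bzr1-D at adequate Pi, against 76.6 and 84.6 CPM in wild type at low Pi and 77.5 and 79.0 CPM in wild type at adequate Pi. The 4 bzr1-D libraries lay above the 4 wild-type libraries, by a margin as small as 85.1 against 84.6 CPM. Of all features, 5.69% were ordered in this way with bzr1-D higher. The averaged log2 difference was 0.20 ± 0.08 (SE), short of the threshold without the block (edgeR, adjusted p = 0.25) and past it with the block (0.21 ± 0.06; edgeR, adjusted p = 0.046). The blocked call held without bzr1-D low Pi of Exp 1 or without wild type low Pi of Exp 2 and was lost in the other 6 fits (highest adjusted p = 0.22), and DESeq2 did not make it with or without the block. At low Pi the log2 difference was 0.24 ± 0.11 and at adequate Pi 0.17 ± 0.11, neither past the threshold in either fit.

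GSO2 (AT5G44700, chr5:18032864-18036894, minus strand), which the reference annotation lists beside SGN3 under the shared name GSO, is a related receptor-like kinase. Its coding sequence was 76.9% identical to that of SGN3, and no 50-base stretch of the exons of either gene occurred elsewhere in the genome. GSO2 measured 17.5 and 16.3 CPM in bzr1-D at low Pi and 20.0 and 16.7 CPM in bzr1-D at adequate Pi, against 6.72 and 9.62 CPM in wild type at low Pi and 7.85 and 8.27 CPM in wild type at adequate Pi. Every bzr1-D library was above every wild-type library, by 1.12 ± 0.14 on the log2 scale averaged over Pi supply (SE). That order, with bzr1-D higher, held for 5.69% of all features tested. GSO2 rose in bzr1-D without the block in the average (edgeR, adjusted p = 0.0038), at adequate Pi (1.18 ± 0.19, adjusted p = 0.026) and at low Pi (1.05 ± 0.19, adjusted p = 0.043). The averaged call held whichever library was left out, in both fits, as did the blocked calls at each Pi supply. Without the block the call at adequate Pi was lost whenever 1 of the 4 adequate-Pi libraries was left out (edgeR, highest adjusted p = 0.19), and that at low Pi held only without wild type low Pi of Exp 2 (highest adjusted p = 0.18).

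TPST (AT1G08030, chr1:2489501-2493250, minus strand), the tyrosylprotein sulfotransferase that adds the sulfate groups peptides of this kind need for activity, was lower in bzr1-D. It measured 22.1 and 19.4 CPM in bzr1-D at low Pi and 19.9 and 20.9 CPM in bzr1-D at adequate Pi, against 29.1 and 31.1 CPM in wild type at low Pi and 30.2 and 29.5 CPM in wild type at adequate Pi. Every bzr1-D library was below every wild-type library, an order that held for 7.47% of all features tested. TPST fell in bzr1-D by 0.54 ± 0.08 on the log2 scale averaged over Pi supply (SE; edgeR without the block, adjusted p = 0.0099), and the call was lost without bzr1-D adequate Pi of Exp 1 (adjusted p = 0.056) or wild type low Pi of Exp 2 (adjusted p = 0.052). At the single Pi supplies it passed only with the block, at -0.54 ± 0.10 at low Pi and -0.55 ± 0.10 at adequate Pi (edgeR, adjusted p = 0.0061 and 0.0056). Of these, the call at low Pi was lost without either Exp 2 low-Pi library (highest adjusted p = 0.067) and the one at adequate Pi without bzr1-D adequate Pi of Exp 1 or either wild-type adequate-Pi library (highest adjusted p = 0.090).

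**Figure D3:**
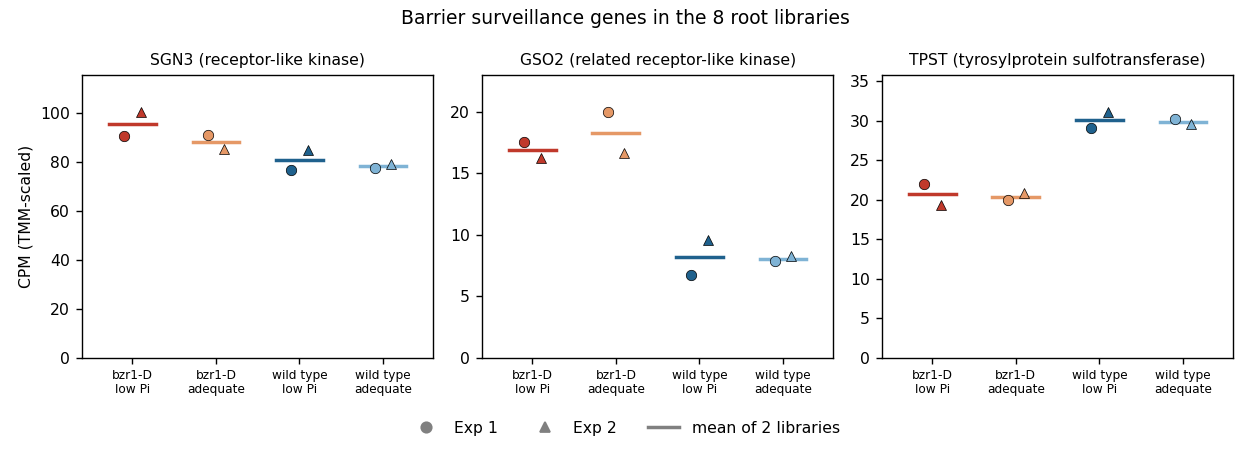
CPM (vertical axes, from 0) of SGN3, its relative GSO2 and TPST in the 8 root libraries; circles are Exp 1, triangles Exp 2 and bars the mean of 2 libraries. GSO2 is at 16.3 to 20.0 CPM in bzr1-D and 6.72 to 9.62 CPM in wild type, and TPST at 19.4 to 22.1 CPM in bzr1-D and 29.1 to 31.1 CPM in wild type.

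The barrier surveillance list held 7 genes, of which 1 rose (GSO2) and 1 fell (TPST) in the averaged genotype comparison, in either fit, beside 5.37% of all features without the block and 15.3% with it. Its median log2 difference was 0.00, beside 0.01 over all features. The other 5 did not pass: RBOHF and RBOHD, NADPH oxidases that make superoxide, and the loci AT4G34600, AT1G61590 (annotated as a protein kinase) and AT2G16385. Per kilobase of exon AT4G34600 stood at 133 ± 21.4 CPM and AT1G61590 at 76.2 ± 14.1 CPM, followed by RBOHF at 34.3 ± 3.37 and RBOHD at 16.0 ± 3.87 CPM (SD, n = 8).

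The list of strip assembly and lignin polymerisation held 13 genes, of which 12 were tested, and AT1G07730, overlapped along its whole length by another gene, had no counts. Per kilobase of exon RCI3 and PRX72, peroxidase genes, were the highest of the list at 243 ± 34.3 and 200.1 ± 20.1 CPM, followed by the dirigent-like loci AT3G55230 at 142 ± 16.9 CPM and AT3G24020 at 102 ± 12.3 CPM (SD, n = 8). None of the 12 passed without the block in the averaged genotype comparison, with a median log2 difference of 0.03 (edgeR). With the block 2 rose in bzr1-D and 1 fell, beside 15.3% of all features called. The laccase gene LAC3, at 135 to 173 CPM in bzr1-D and 123 to 139 CPM in wild type, was higher by 0.28 ± 0.07 on the log2 scale (SE; edgeR with the block, adjusted p = 0.014). The peroxidase-family locus AT4G11290 was higher by 0.36 ± 0.07 (adjusted p = 0.0028 in the same fit), at 101, 97.3, 95.5 and 89.5 CPM in bzr1-D against 79.2, 78.3, 79.5 and 63.4 CPM in wild type. The peroxidase gene RCI3, at 234 to 283 CPM in bzr1-D and 307 to 352 CPM in wild type, had a log2 difference of -0.34 ± 0.08 (adjusted p = 0.011 in the same fit). AT4G11290 kept the call whichever library was left out. LAC3 lost it without the adequate-Pi library of Exp 1 of either genotype (edgeR, highest adjusted p = 0.11), and RCI3 without that of Exp 2 of either genotype (highest adjusted p = 0.099).

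Of the 12 genes of monolignol synthesis, which supplies the lignin building blocks, none passed in the averaged genotype comparison without the block (median log2 difference 0.09). With the block 1 rose, the methyltransferase gene OMT1, by 0.47 ± 0.10 on the log2 scale (SE; edgeR, adjusted p = 0.0068), a call that held whichever library was left out. With 15.3% of all features called in that fit, 1 gene of 12 is not above the background. OMT1 lay between 444 and 553 CPM in bzr1-D and between 346 and 452 CPM in wild type, so 1 wild-type library, low Pi of Exp 2, reached into the bzr1-D range. Per kilobase the highest of this list were CCOAOMT1 at 756 ± 77.7 CPM, C4H at 409 ± 35.4 CPM, PAL1 at 331 ± 32.9 CPM and OMT1 at 329 ± 66.9 CPM (SD, n = 8). The 13 genes of the suberin lamellae, the later wall layer of the endodermis, had a median log2 difference of 0.01. None of them passed without the block, and with it 1 of the 13, the acyltransferase gene GPAT7, fell (beside the same 15.3%), with a log2 difference of -0.49 ± 0.08 (SE; edgeR, adjusted p = 0.0016). It lay between 11.2 and 19.1 CPM in bzr1-D and between 17.7 and 26.5 CPM in wild type, so the genotypes overlapped. With the block GPAT7 was also called at adequate Pi (-0.64 ± 0.12; edgeR, adjusted p = 0.0056) but not at low Pi. Fits that left out 1 library are not given for it. CYP86A1 and ASFT, enzymes of suberin monomer synthesis, were the highest of that list per kilobase at 151 ± 13.0 and 118 ± 14.2 CPM, ahead of KCS20 at 71.9 ± 4.94 CPM and ABCG6 at 71.3 ± 10.3 CPM (SD, n = 8).

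The endodermis identity list held 8 genes, among them regulators that specify the cell layer before the strip forms. None of the 8 passed without the block in the averaged genotype comparison, and the median log2 difference was 0.20. With the block 3 rose in bzr1-D: SHR by 0.23 ± 0.07, JKD by 0.22 ± 0.06 and MGP by 0.28 ± 0.08 on the log2 scale (SE; edgeR, adjusted p = 0.038, 0.028 and 0.037), beside 15.3% of all features. SHR encodes the transcription factor that moves from the stele into the endodermis, and JKD and MGP encode zinc-finger partners of it. Most fits that left out 1 library lost these calls: SHR kept its call only without bzr1-D adequate Pi of Exp 1 or bzr1-D low Pi of Exp 2, JKD only without a low-Pi library of Exp 1, and MGP only without wild type adequate Pi of Exp 1 or a low-Pi library of Exp 2 (edgeR, highest adjusted p = 0.24). SCR, which SHR acts with, did not pass in either fit and was at 50.9 to 63.0 CPM in bzr1-D and 54.0 to 64.1 CPM in wild type.

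**Figure D4:**
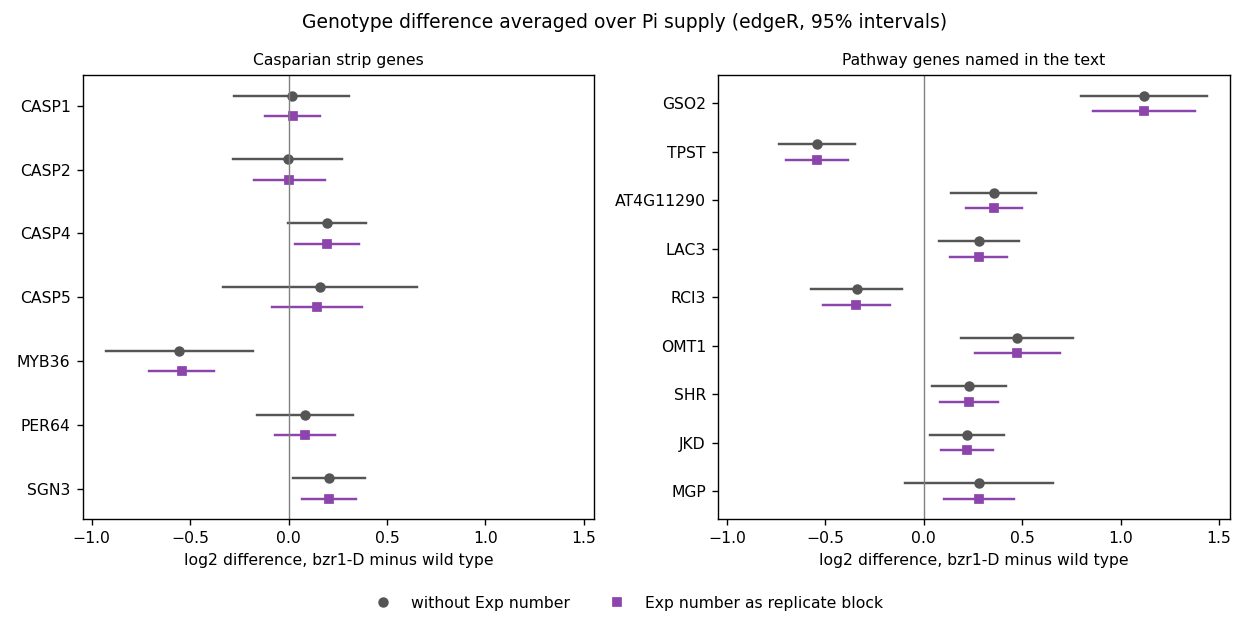
Log2 difference, bzr1-D minus wild type averaged over Pi supply (horizontal axes), of 7 Casparian strip genes (left) and 9 pathway genes (right), with 95% intervals from edgeR; grey circles leave the Exp number out and purple squares use it as a replicate block. MYB36 is at -0.55 and -0.54 in the 2 fits, GSO2 at 1.12 in both, and CASP1 and CASP2 lie near 0.

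Marker genes of other root tissues and of the shoot are given beside these differences, and their part in them was not tested. The summed CPM of 6 root hair markers ran from 120 to 359 in bzr1-D and from 236 to 341 in wild type. In the averaged comparison without the block 1 of them, RSL4, was called lower in bzr1-D (edgeR, log2 difference -0.78 ± 0.16, adjusted p = 0.033), beside 5.37% of all features called. The sum of 10 shoot markers ran from 69.5 to 82.1 CPM in bzr1-D and from 38.6 to 74.1 CPM in wild type, with at most 3 of the 10 at 0 in a library. Gene by gene, the averaged log2 difference without the block was positive for 0 of the 6 root hair markers (median -0.58) and for 10 of the 10 shoot markers (median 0.73). Markers of dividing cells and the root tip (9 genes) summed to 192 to 222 CPM in bzr1-D and 164 to 209 CPM in wild type, and those of xylem (7 genes) to 504 to 625 CPM in bzr1-D and 498 to 589 CPM in wild type. With the block the xylem marker ACL5 and the root tip marker PLT2 fell in bzr1-D, at -0.72 ± 0.08 and -0.60 ± 0.13, and the shoot marker RCA rose, at 0.41 ± 0.10 (log2 ± SE; edgeR, adjusted p = 5.1e-05, 0.0070 and 0.017). In that fit 5 of the 7 xylem markers had a positive averaged log2 difference (median 0.14). Among the 9 markers of dividing cells and the root tip it was 7 (median 0.17). Of all features, 15.3% were called there. The 8 members summed to 460.4 to 554 CPM in bzr1-D and 421 to 558 CPM in wild type, so as a sum they overlapped.

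Low Pi moved none of the members past the threshold. In bzr1-D the log2 difference of low minus adequate Pi was 0.01 ± 0.18 for CASP1, 0.09 ± 0.17 for CASP2, 0.12 ± 0.12 for CASP4 and -0.26 ± 0.30 for CASP5 (SE). In wild type it was -0.18 ± 0.18 for CASP1, -0.16 ± 0.17 for CASP2, -0.28 ± 0.12 for CASP4 and -0.50 ± 0.30 for CASP5. These 4 CASP values were thus all below 0 in wild type and, apart from CASP5, above 0 in bzr1-D (CASP1 was at -1.3e-04 there with the block), and without the block every interval but that of CASP4 in wild type (from -0.56 to -0.0031) reached across 0. With the block that of CASP5 in wild type did not reach it either (from -0.81 to -0.16). Xylem markers had the same opposed signs, with 6 of 7 positive in bzr1-D (median 0.13) and 0 of 7 in wild type (median -0.13). So did the list of strip assembly and lignin polymerisation, with 10 of 12 positive in bzr1-D (median 0.10) and 3 of 12 in wild type (median -0.12). The part of the xylem markers in the CASP values was not tested.

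PER64 had a Pi difference of 0.07 ± 0.15 in bzr1-D and -0.27 ± 0.15 in wild type (SE). MYB36 had one of 0.03 ± 0.23 in bzr1-D and 0.13 ± 0.22 in wild type, and SGN3 one of 0.12 ± 0.11 in bzr1-D and 0.04 ± 0.11 in wild type. No member passed in the Pi response in bzr1-D, in wild type or averaged over genotypes, with or without the block (edgeR). At an unadjusted p under 0.05 there were 0 members in bzr1-D, 1 in wild type (CASP4) and 0 averaged without the block, and 0, 3 (CASP4, CASP5 and PER64) and 1 (CASP5) with it. DESeq2 called none in any of them. Over all features edgeR called 0% in each Pi comparison, and with the block 0.0197% in bzr1-D, 0.0839% in wild type and 0.148% averaged. The blocked counts rested on single libraries: 17 features were called in wild type and 30 averaged with all libraries, against 248 and 346 without wild type low Pi of Exp 1, and 0 to 114 and 9 to 176 without each of the others. In bzr1-D 4 were called with all libraries and 0 to 100 without 1 of them. No gene of the 5 pathway lists passed in a Pi comparison in either fit. Averaged over genotypes, 12 of the 13 suberin genes had a positive log2 difference of low minus adequate Pi (median 0.14) and 0 of the 8 endodermis identity genes did (median -0.04), beside a median of -0.0015 over all features. In the same comparison 10 of the 12 monolignol genes were positive (median 0.05), as were 6 of the 6 root hair markers (median 0.61) and 8 of the 10 shoot markers (median 0.73). The part of these markers in the list values was not tested.

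CASP5 had libraries of 1 group that lay far apart. It measured 14.9 and 27.3 CPM in bzr1-D at low Pi and 22.3 and 28.2 CPM in bzr1-D at adequate Pi, against 16.3 and 18.3 CPM in wild type at low Pi and 20.3 and 28.8 CPM in wild type at adequate Pi. Within each Exp number and each genotype the low-Pi library was the lower one. Averaged over genotypes the log2 difference was -0.38 ± 0.21 without the block (SE; edgeR, adjusted p = 1.00) and -0.39 ± 0.10 with it (adjusted p = 0.30). Left-out libraries moved the blocked call: without wild type low Pi of Exp 1, or without bzr1-D low Pi of Exp 2, CASP5 passed (edgeR, adjusted p = 0.025 and 0.0052), and in the other 6 fits it did not. Without bzr1-D low Pi of Exp 1, the library with the least CASP5, the blocked fit also called its Pi difference in wild type (-0.49 ± 0.11, adjusted p = 0.045) and its genotype difference at low Pi (0.49 ± 0.14, adjusted p = 0.032) and averaged (0.26 ± 0.09, adjusted p = 0.046).

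PER64 measured 107 and 130.0 CPM in bzr1-D at low Pi and 115 and 111 CPM in bzr1-D at adequate Pi, against 96.1 and 103 CPM in wild type at low Pi and 108 and 133 CPM in wild type at adequate Pi. The highest single library was wild type at adequate Pi of Exp 2, and both wild-type low-Pi libraries were the lowest of the 8. The difference between the Pi responses, bzr1-D minus wild type, was 0.34 ± 0.21 for PER64 and 0.41 ± 0.17 for CASP4 (SE), and neither passed (edgeR, adjusted p = 1.00). Of all features 0% passed in this comparison, and at an unadjusted p under 0.05 there was 1 member, CASP4, with 0 by DESeq2 and 2, CASP4 and PER64, with the block.

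**Figure D5:**
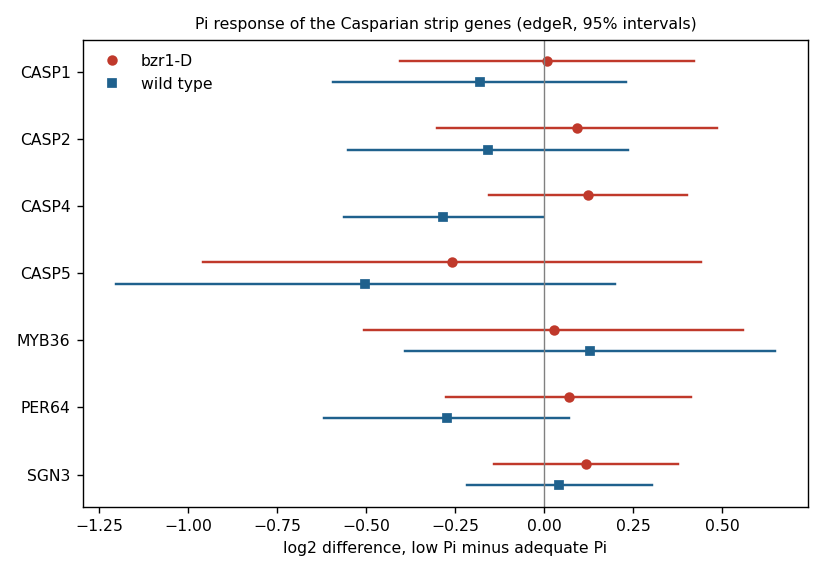
Log2 difference of low minus adequate Pi (horizontal axis) for 7 Casparian strip genes in bzr1-D (red circles) and wild type (blue squares), from edgeR without the Exp number, with 95% intervals. CASP4 is at 0.12 in bzr1-D and -0.28 in wild type, and only its wild-type interval stays below 0.

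The members lay far apart in level. Per kilobase of exon, over the 8 libraries, CASP1 was highest at 195 ± 22.1 CPM, followed by PER64 at 91.9 ± 10.4, CASP2 at 70.6 ± 7.84 and CASP4 at 39.4 ± 4.49 CPM (SD, n = 8). CASP5 stood at 26.4 ± 6.57 CPM, SGN3 at 21.4 ± 2.01 CPM and MYB36 at 16.4 ± 4.24 CPM per kilobase. CASP1 was above PER64 in every library with no overlap of their ranges, as CASP2 was above CASP4. The ranges of PER64 and CASP2, of CASP4 and CASP5, of CASP5 and SGN3 and of SGN3 and MYB36 overlapped, although within a library the order was kept in 8, 8, 7 and 6 of the 8 libraries. In the genes' coding sequences CASP2 and CASP4 were the most alike of the 4 CASP genes compared, at 79.8% identity, and CASP2 and CASP5 the least, at 55.1%.

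ESB1 could not be read from these data. It had 3 to 11 counts in a library, or 0.162 to 0.605 CPM, and 84.3% of its exon bases are also annotated to AT2G28671, which had 0 or 1 counts. The sources used here do not say whether strand was used in counting or what was done with reads in 2 overlapping genes. No fold change is given for ESB1. The overlaps of the other members with a neighbour were 49 exon bases in CASP1, 34 in PER64 and 9 in SGN3, and no 50-base stretch of any member's exons occurred elsewhere in the genome.

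Across the 8 libraries CASP1, CASP2 and PER64 moved together, with Pearson r of log2 CPM between 0.84 and 0.86 for the 3 pairs. For MYB36 and the 6 other members that could be read, r lay between -0.59 (with CASP4) and 0.39 (with CASP1). These are descriptions over 8 libraries that share genotype, Pi supply, Exp number and scaling. Outside the set, the features with profiles most like the mean of the members were AT5G18370 and RCE1 (r = 0.96 for both), followed by PLL5, ERD7 and AT2G39430, the last a dirigent-like gene that is also in the strip assembly list (r = 0.95 for each). The next 5 of the 10 nearest, among 18812 candidates, were AT1G16180, ABCG37, AT2G44870, ALDH2C4 and RLP22, with r between 0.93 and 0.94. The mean included ESB1, whose level could not be read, and the list depended on it. With ESB1 left out of the mean, 0 of these 10 were still among the 10 nearest, so AT2G39430 was not among them either. With Spearman's rho in place of Pearson's r, 3 of the 10 were shared.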

How the data were processed

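RNA-seq read counts per feature, deposited by the authors as 1 table for the 8 root libraries, were made from polyadenylated RNA and single reads of 50 bases, per the labels' protocols. TopHat2 2.0.11, HTSeq 0.6.1, DESeq2 1.2.8 and the TAIR10 genome are named in the submitters' processing notes. How strand was handled when reads were counted is not stated there. The deposited values are whole, unscaled counts with 1 row per feature.

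The features were filtered with filterByExpr of edgeR 4.0.16 (minimum count 10; 20262 of 40246 kept), scaled by TMM and fitted with edgeR's quasi-likelihood test over all 8 libraries (R 4.3.3), with p-values adjusted by Benjamini-Hochberg over all features tested and a threshold of 0.05. The biological coefficient of variation was 0.169 without and 0.0858 with the replicate block. DESeq2 1.42.0, RLE scaling, no filter, each library left out in turn and values within each Exp number were the alternatives. DESeq2 with the block, the leave-one-out fits with the block and the MYB36 ratios were added after the data had been seen.

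Same-numbered libraries deviated together in all 6 pairs of groups (r from 0.290 to 0.643). The labels number them Exp 1 and Exp 2, so the numbers were taken to pair the libraries. Between the Pi supplies of the same genotype r was 0.604 (bzr1-D) and 0.643 (wild type), but between genotypes it was 0.290 to 0.489. The block fits a single Exp effect for both genotypes, so a deviation particular to a genotype stays outside it. Blocked p-values of genotype differences may therefore be too small. Replicates of 1 group differed by a chi-square per degree of freedom of 16.9 to 36.3, well beyond sampling noise. As they also differed in Exp number, this does not show that they are independent samples. Each library was counted as a sample, and the labels call them biological replicates. Nothing in the labels says whether plants were grown apart, so p-values measure the spread between these libraries. The 95% intervals of log2 differences come from edgeR's fit and rest on the same spread.

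The members and gene lists were chosen with earlier results of these data known. Of the 9 loci the set was defined by, 1 is not reported here and enters no count of members. The text names every other member, every list gene called in a comparison, up to 4 genes a list with the highest level per kilobase and the 10 tested features most like the members by correlation of log2 CPM (of 18812 with a mean of at least 1 CPM outside the set). Genes without a symbol in the reference are given by locus. Deposited gene starts matched RefSeq's TAIR10.1 loci within 2 kb for 99.8% of 26932 features. The edgeR fits were run before use on simulated counts with planted genotype differences. Those were larger than the differences fitted for the members, so the run does not speak to calls of that size. Promoters are the bases before RefSeq starts, and no motif enrichment was tested.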

Additional observations from a re-analysis of the deposited data

Results flagged for a closer look

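CASP4 stood out because its response to low Pi differed between the genotypes by 0.41 ± 0.17 on the log2 scale (SE; bzr1-D minus wild type), at an unadjusted p of 0.045 for the difference itself in edgeR. It did not pass once adjusted over all features (edgeR, adjusted p = 1.00), and it was 0.40 ± 0.15 with the replicate block. Within Exp 1 the log2 response of CASP4 was 0.04 in bzr1-D and -0.41 in wild type, and within Exp 2 it was 0.21 in bzr1-D and -0.15 in wild type.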

How the results depend on the processing

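Of 36 values for single genes, 36 kept their direction and their side of the threshold with RLE scaling and 36 with no filter on low counts. The replicate block moved 14 past the threshold, DESeq2 moved 2 and DESeq2 with the block moved 8. Of 20 values within Exp 1 and within Exp 2, 4 and 3 moved by more than 1 SE, for CASP4, CASP5, GSO2 and TPST, none of which changed sign. CASP1 in the Pi response of bzr1-D was -0.09 within Exp 1 and 0.09 within Exp 2. Beside 0 members without the block, the block gave 1 member called by genotype at adequate Pi, 2 at low Pi and 2 averaged, and DESeq2 with the block gave 1 at low Pi and 1 averaged. With the replicate block the sign turned for CASP1 in the Pi response of bzr1-D (-1.3e-04) and for CASP2 in the averaged genotype difference (0.0044, and 0.0072 with DESeq2 and the block). The cause was not tested.

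Over all features the block called 4, 17 and 30 in the Pi responses of bzr1-D, of wild type and averaged, DESeq2 called 19, 27 and 57, DESeq2 with the block called 48, 64 and 106, and edgeR with no filter called 1 averaged, against 0. By genotype at adequate Pi, at low Pi and averaged, edgeR called 404, 429 and 1089 without the block and 1500, 1823 and 3090 with it, and DESeq2 with the block called 1000, 1194 and 2189. DESeq2 with the block called 1 feature for the difference of Pi responses.

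Leaving out 1 library at a time, edgeR without the block called 0 to 10 features in the Pi response of wild type and 0 to 19 averaged, and by genotype 173 to 385 at adequate Pi, 182 to 362 at low Pi and 609 to 900 averaged. Members called ranged from 0 to 1 in the Pi response of wild type, 0 to 1 averaged, 0 to 1 by genotype at adequate Pi, 0 to 3 at low Pi and 0 to 3 averaged, over fits without and with the block. Fits with a lone library in a group take it to vary like the other groups. The sign turned for some values near 0, over ranges in log2 of -0.12 to 0.17 (MYB36), -0.15 to 0.15 (CASP1) and -0.75 to 0.12 (CASP5) in the Pi response of bzr1-D, of -0.13 to 0.39 (MYB36), -0.35 to 0.0090 (CASP1) and -0.34 to 0.045 (CASP2) in that of wild type, and of -0.069 to 0.10 (CASP1) and -0.11 to 0.11 (CASP2) in the averaged genotype difference. With 2 libraries per group the intervals given are wide, and ESB1 is limited by its 3 to 11 counts.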
